A study of Callithrix jacchus with 54 samples.

Results

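The genes described here make, carry, clear and sense retinoic acid. They are 9 genes listed by symbol: the enzyme ALDH1A2, the receptor STRA6, the binding proteins CRABP1 and CRABP2, the reductase DHRS3, the hydroxylase CYP26A1 and the nuclear receptors RARA, RARB and RARG. All 9 were found by symbol among the 14812 genes of the expression table, and all 9 passed the filter on low values that left 11197 genes for testing. Their gene identifiers in the table were 100413342 for ALDH1A2, 100389569 for STRA6, 100385415 for CRABP1, 100388419 for CRABP2, 100386416 for DHRS3, 100388379 for CYP26A1, 100410811 for RARA, 100396363 for RARB and 100403219 for RARG.

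The data are poly(A) RNA-seq libraries from a culture system in which embryonic stem cells of the common marmoset (cjESCs) were turned into cells resembling primordial germ cells (PGCLCs). All cells came from the line CMES40 and carried the reporters BLIMP1-tdTomato and NANOS3-eGFP. The 27 conditions had 2 libraries each, 54 in all. Expression was given in TPM, a level scaled to transcript length and to the library total that can be set side by side between genes.

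The first 13 conditions used cells with 4 transgenes, rtTA, tetO-BLIMP1, SOX17-GR and DD-TFAP2C, kept as stem cells in DK20FA medium. They comprised these cjESCs and cells at 12, 24, 48 and 96 h of 3 inductions: BLSE (BMP4, LIF, SCF and EGF) with no transgene induced, BLSE with SOX17 enforced, and LSE (no BMP4) with SOX17 enforced. SOX17-GR is a fusion with the glucocorticoid receptor that dexamethasone activates. The other 14 conditions used cells labelled wild type and kept in PESFA medium: the cjESCs, cells treated for 24 h with IM12 and activin A (pre-treated cells), cells induced from these with BLSE and the WNT inhibitor IWR1 at 12, 24, 48 and 96 h and day 6, the same induction with BMS493 added at 12, 24, 48 and 96 h, and day 6 cells kept for 20, 40 and 70 days in xenogeneic reconstituted ovaries (xrOvary). BMS493 is an inverse agonist of all retinoic acid receptors. In the xrOvary the marmoset cells were aggregated with gonadal somatic cells of female mouse embryos, in a medium that held retinoic acid in the first days. Every induction medium held a ROCK inhibitor. The cjESCs and pre-treated cells were sorted as TRA-1-60(+), cells at 12, 24 and 48 h were unsorted, and cells from 96 h on were sorted as tdTomato(+), except in the BLSE induction, which was unsorted at 96 h too. Every condition is one derivation of one embryonic stem cell line, which limits what the groups represent.

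Retinoic acid is made from vitamin A. Retinol is taken up through STRA6, oxidised to retinaldehyde, and oxidised again by ALDH1A2 to retinoic acid, while DHRS3 reduces retinaldehyde back to retinol and CYP26A1 breaks retinoic acid down. CRABP1 and CRABP2 carry it in the cytoplasm, and CRABP2 hands it to the nuclear receptors RARA, RARB and RARG, which pair with RXRs on DNA. CYP26A1, DHRS3, RARB and STRA6 are textbook targets of the receptors, so the pathway feeds back on itself. In the fetal gonad, retinoic acid is known for STRA8 induction in germ cells entering meiosis.

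Pluripotency markers summed to 3712 to 4668 TPM in the cjESCs and 107 to 128 TPM in unsorted BLSE cells at 96 h, and germ cell markers to 735 to 898 TPM in the cjESCs and 2779 to 3780 TPM in the sorted cells of 96 h and day 6. The germ cell list holds PRDM1 (BLIMP1), whose tdTomato reporter was used for the sort, and SOX17, which was enforced in the SOX17 inductions. Its sum is therefore not independent of the sort or of the enforced gene. The totals over the genes given ran from 790300 TPM (cjESC PESFA replicate 2) to 839203 TPM (BLSE 48 h replicate 2), with 10146 to 12688 genes above 0, and the read depth behind them is unknown. TPM is scaled to the library total, so near-even totals are set by the unit and are no check of the libraries. The libraries of a pair correlated at 0.977 to 0.994 over the tested genes, and no library duplicated another. Replicate numbers within the labels mark separate samples, described in the methods as biological duplicates. For 1 gene, exact permutation of 2 libraries against 2 cannot give a p under 0.333, so calls rest on limma across all genes, with 1 mean for each of the 27 conditions and the spread pooled over all 54 libraries. A gene was called at an adjusted p (Benjamini-Hochberg over 11197 genes) under 0.01, and log2 differences are on the log2(TPM + 1) scale, which understates changes at low levels.

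Among the members, the 2 genes at the start of the pathway were low. STRA6 never exceeded 3.66 TPM and was listed at 0 in 6 libraries. ALDH1A2 lay between 17.8 and 22.4 TPM in the cjESCs in PESFA medium and at 4.40 and 19.8 TPM in the pre-treated cells, but in each other library it lay at or under 6.81 TPM. The genes that bind and remove retinoids were far more abundant. CRABP2 reached 2061 TPM at 48 h of BLSE, CRABP1 reached 1696 TPM in cjESCs in PESFA medium, CYP26A1 reached 495 TPM at 96 h of BLSE, and DHRS3 ran from 14.0 to 112 TPM with no library at 0.

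RARG was the main retinoic acid receptor. It had the highest TPM of the 3 receptors in 50 of the 54 libraries, and RARB had it in the other 4, all from xrOvary. RARG ran from 2.62 to 99.0 TPM, RARB from 0.20 to 10.1 TPM, and RARA from 0.32 to 2.74 TPM. CRABP2 was above CRABP1 in 41 of 54 libraries. When the 27 conditions were put in order of their mean TPM, 26 pairs of neighbours had libraries that overlapped in 18 pairs for RARG and CRABP2, 19 for DHRS3, 20 for CYP26A1, 21 for CRABP1, 22 for RARB, 24 for STRA6 and 25 for RARA and ALDH1A2. Most neighbours in these orders therefore had overlapping libraries, and for RARA and ALDH1A2 nearly all did. An order by mean puts like conditions side by side, so these counts say nothing of conditions further apart.

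**Figure D1:**
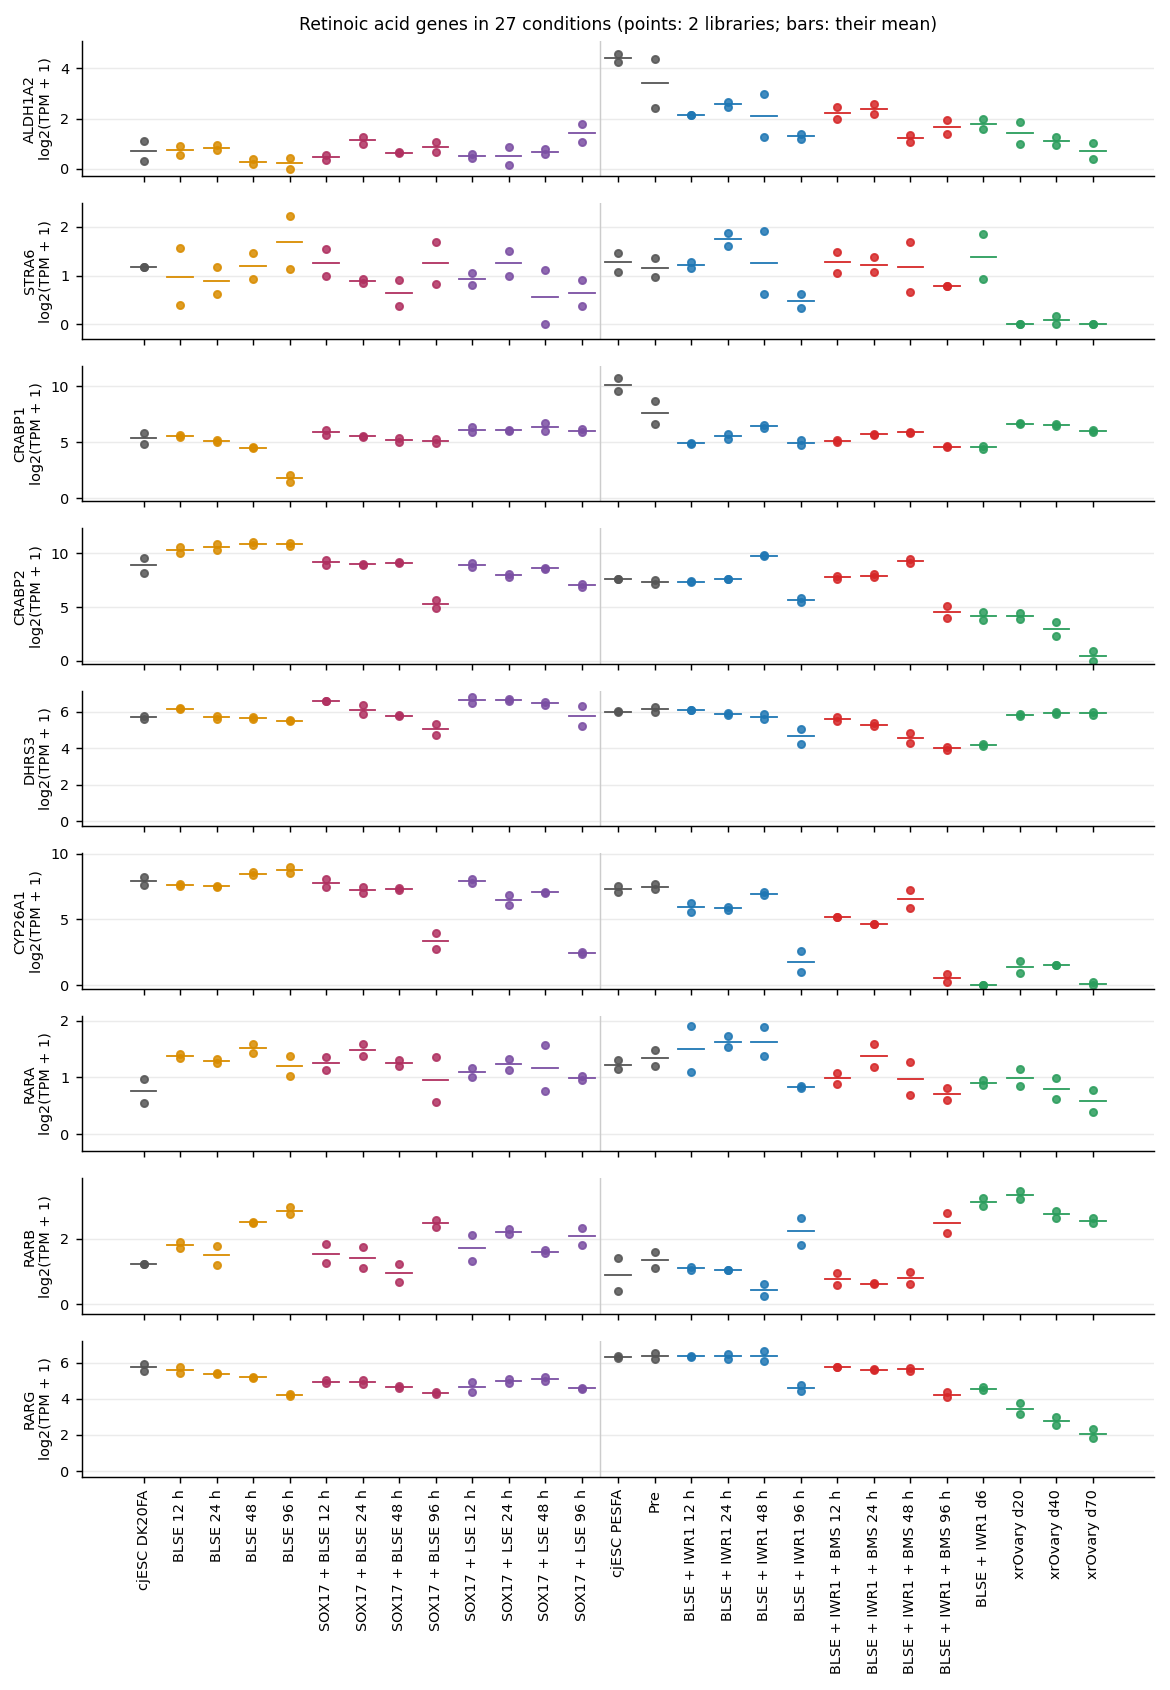
Level of each of the 9 genes as log2(TPM + 1) (vertical axis) in the 27 conditions (horizontal axis), with a point for each of 2 libraries and a bar at their mean. The vertical line parts the transgene cells from the wild type cells. CYP26A1 dropped to its low levels from 96 h on in the sorted cells. RARG fell there too, but also in the unsorted BLSE cells at 96 h (16.6 and 18.4 TPM). RARB had its highest level, 10.1 TPM, at day 20 of xrOvary.

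BMS493 was added to the induction with BLSE and IWR1 to ask whether blocking the retinoic acid signal keeps neural genes from coming on. DHRS3, RARG and CYP26A1 were lower with BMS493 when the 4 times were averaged, with log2 differences of -0.73, -0.61 and -0.90. At a single time, DHRS3 at 48 h was the 1 member and time of the 36 tested that passed. The other 6 members passed neither at a single time nor as a mean.

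DHRS3, the reductase that takes retinaldehyde out of the path to retinoic acid, read 68.8 and 67.9 TPM at 12 h, 60.0 and 55.1 at 24 h, 48.3 and 57.5 at 48 h and 18.2 and 32.8 at 96 h without BMS493. With BMS493 it read 51.7 and 45.1 TPM at 12 h, 40.2 and 36.4 at 24 h, 18.4 and 27.4 at 48 h and 16.0 and 14.0 at 96 h. Both libraries with BMS493 were below both without it at each of the 4 times. At 48 h the log2 difference was -1.19 (SE 0.229, adjusted p = 0.000599), while the values at 12, 24 and 96 h were -0.49, -0.57 and -0.67 and did not pass. The 48 h call was the 1 call among 9 members, where 4.83% of all tested genes (541) were called, or 1.96% in the lower direction, a count that ran from 246 without BMS493 48 h replicate 1 to 814 without the control replicate 2. At 12, 24 and 96 h no member was called, beside 0%, 0.0893% and 0.732% of tested genes, and 2, 3 and 3 members had an unadjusted p under 0.05 in limma. It was lost when BLSE + IWR1 + BMS493 48 h replicate 1 was left out (-0.92, adjusted p = 0.0395) and in a fit of only the libraries compared (adjusted p = 0.0128).

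RARG, the most abundant receptor, was the other gene with no overlap at any time. Without BMS493 it read 78.8 and 82.3 TPM at 12 h, 74.2 and 89.1 at 24 h, 66.6 and 99.0 at 48 h and 25.9 and 20.9 at 96 h. With BMS493 the values were 53.7 and 53.0, 47.2 and 49.3, 51.7 and 45.8, and 16.1 and 19.5 TPM. The 4 differences of -0.59, -0.74, -0.73 and -0.37 (SE 0.201) did not pass singly, and at 48 h the adjusted p was 0.0150. The absence of overlap at a single time is common here: 14.6% of tested genes had both BMS493 libraries lower at 12 h, 16.3% at 24 h, 21% at 48 h and 29.6% at 96 h. At all 4 times it held for 1.49% of tested genes, and for 2 of the 9 members.

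CYP26A1, which clears retinoic acid, had both BMS493 libraries lower at 12, 24 and 96 h but not at 48 h. Its levels at 12 h were 76.3 and 45.6 TPM without and 34.5 and 34.9 TPM with BMS493, and at 24 h 60.6 and 52.3 TPM against 23.4 and 24.4 TPM. At 48 h the libraries without BMS493 read 131 and 115 TPM, and those with it read 151 and 57.0 TPM, one above and one below the others. By 96 h the levels were 5.06 and 0.95 TPM against 0.82 and 0.15 TPM. The differences were -0.75, -1.20, -0.40 and -1.25 (SE 0.389), none of which passed, with adjusted p values of 0.558, 0.306, 0.553 and 0.0735.

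Averaging the 4 times within the same fit, a contrast chosen after the single times had been seen, gave -0.73 (SE 0.114, adjusted p = 3.55e-05) for DHRS3, -0.61 (adjusted p = 7.33e-05) for RARG and -0.90 (SE 0.195, adjusted p = 0.00163) for CYP26A1. These were 3 of the 9 members, all lower, beside 6.99% of all tested genes called and 2.59% called lower. All 9 mean differences were below 0, while 6086 of the 11197 tested genes were above 0. The signs of RARA, RARB, ALDH1A2 and STRA6 say little, since these were under 5 TPM in 54, 43, 49 and 54 of the 54 libraries. The median over the members was -0.22 against 0.02 over all tested genes. RARA had -0.38 (SE 0.137, adjusted p = 0.0515), and its levels, at most 2.74 TPM, were close to the pseudocount. The 95% intervals of the mean difference were -0.35 to 0.29 for RARB, -0.49 to 0.25 for CRABP1, -0.58 to 0.15 for CRABP2, -0.60 to 0.27 for ALDH1A2 and -0.48 to 0.36 for STRA6. The 3 calls of the mean held with each of the 16 libraries left out in turn, and that of CYP26A1 was lost in a fit of only these 16 libraries (adjusted p = 0.0359).

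**Figure D2:**
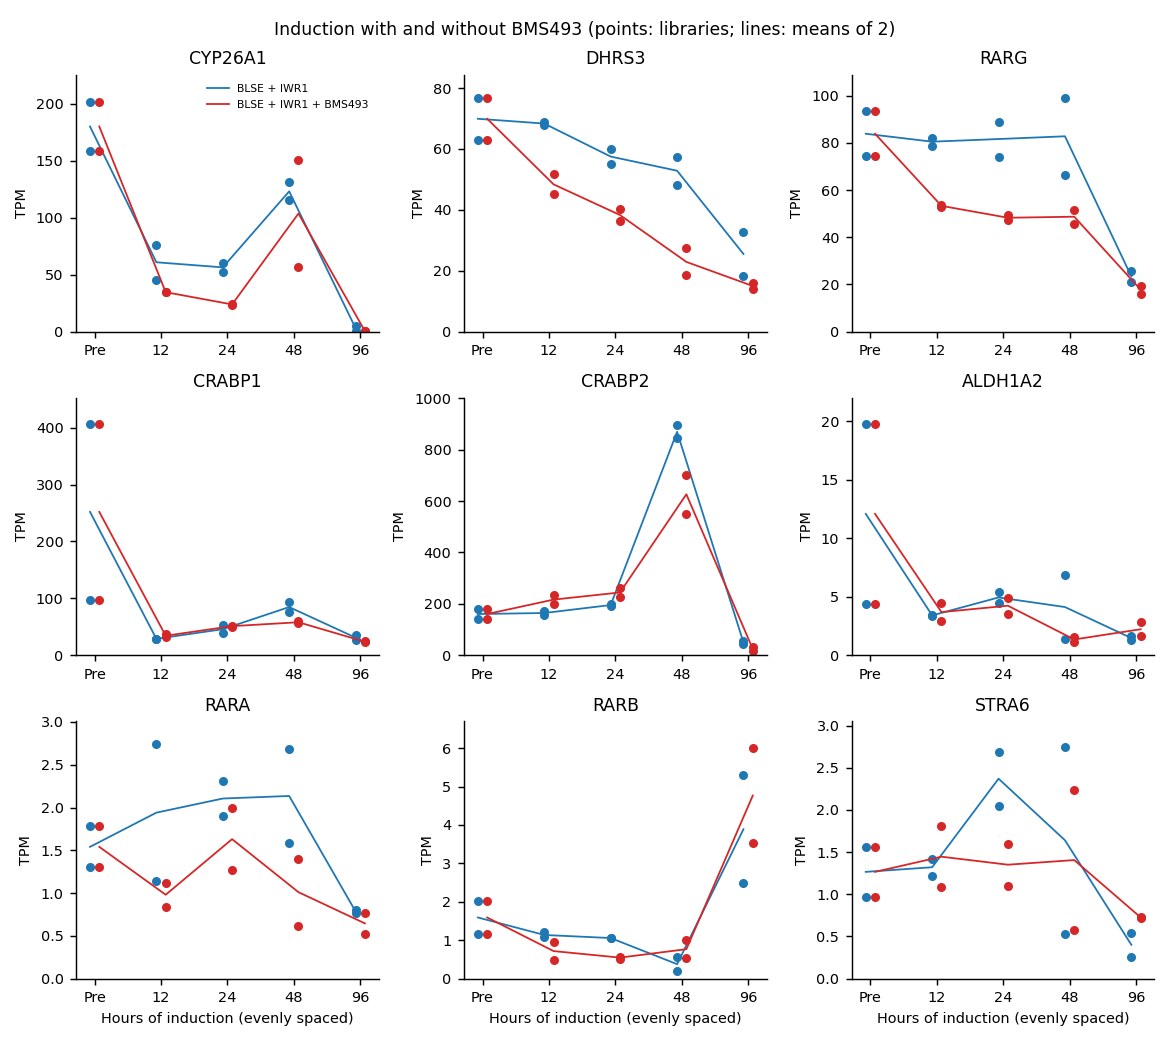
TPM (vertical axes, from 0) of the 9 genes in pre-treated cells (Pre) and at 12, 24, 48 and 96 h (horizontal axis, evenly spaced) of induction with BLSE and IWR1, without (blue) and with (red) BMS493. Points are libraries and lines join the means of 2. DHRS3 and RARG with BMS493 lie under both libraries without it at all 4 times, and the 2 BMS493 libraries of CYP26A1 at 48 h, 151 and 57.0 TPM, lie either side of the others.

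RARB, a receptor gene known for its own retinoic acid response, was low throughout the first 48 h. Its libraries read 1.20 and 1.07 TPM at 12 h without BMS493 and 0.49 and 0.94 TPM with it, and 1.06 and 1.05 TPM at 24 h against 0.52 and 0.57 TPM. At 48 h it read 0.20 and 0.55 TPM without and 1.0 and 0.53 TPM with BMS493, with overlap. At 96 h, after sorting, it read 5.29 and 2.49 TPM without and 3.53 and 6.00 TPM with BMS493, so that the libraries overlapped. CRABP2 at 96 h read 54.7 and 43.1 TPM without and 14.7 and 32.7 TPM with BMS493, a difference of -1.11 (SE 0.359, adjusted p = 0.0885) that did not pass. Its differences were 0.39 at 12 h and 0.32 at 24 h, where both BMS493 libraries were higher, and -0.48 at 48 h, where both were lower, and none of these passed.

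The 48 h libraries with BMS493 also differed in some lists of cell type markers and overlapped in others. The summed TPM of 11 stromal and gonadal somatic markers was 396 and 423 without BMS493 and 1241 and 1355 with it, most of it VIM, and 2 of the 11 were at 0 in both libraries. The pluripotency markers summed to 5324 and 6150 TPM without and 3024 and 3315 TPM with it, and 7 mesoderm and amnion markers to 1560 and 1583 TPM against 1866 and 2444 TPM. Neural markers summed to 327 and 390 TPM without and 303 and 346 TPM with BMS493, with overlap. Of 7 listed neural markers 5 were in the table, and 0 of these were at 0 in both libraries without BMS493 but 3 with it. The level sum therefore does not describe each neural marker. Germ cell markers summed to 556 and 625 TPM without and 425 and 653 TPM with it, also with overlap. Cells at 48 h were unsorted, and in such bulk samples fewer cells of a type and less RNA per cell cannot be told apart. The part of these markers in the DHRS3 value was not tested. At 24 h, also unsorted, the stromal sums were 236 and 279 TPM without and 539 and 540 TPM with BMS493. After sorting at 96 h they were 332 and 395 TPM against 235 and 221 TPM. Their part in the DHRS3 values of these times was not tested either.

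**Figure D3:**
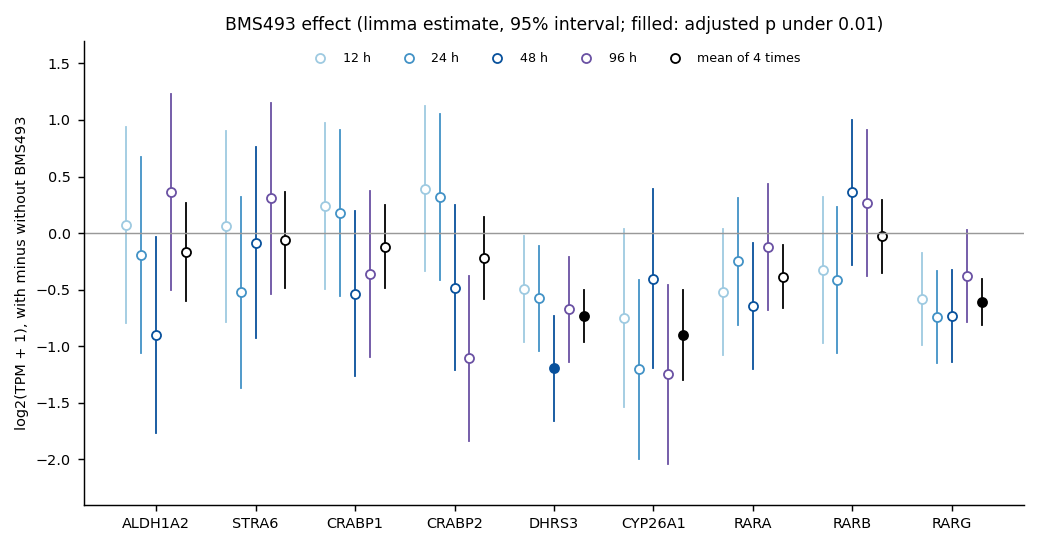
Log2(TPM + 1) difference with minus without BMS493 (vertical axis) for each gene (horizontal axis) at 12, 24, 48 and 96 h and as the mean of the 4 times. Circles are limma estimates from 2 libraries against 2 at each time, bars are 95% intervals, and filled circles passed an adjusted p under 0.01. Filled circles are DHRS3 at 48 h (-1.19) and the means of DHRS3 (-0.73), CYP26A1 (-0.90) and RARG (-0.61).

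Other genes of retinoid handling and genes known to respond to retinoic acid were looked at beside the members. Of 33 listed genes of retinoid metabolism and transport, 27 were in the table and 14 were tested. At 48 h of BMS493 ALDH1A3 and RDH10 rose and FABP5 fell, beside 4.83% of all tested genes called. These 3 changed by less than 4-fold, outside the rule for naming, and are named after their values were seen. ALDH1A3 makes retinoic acid, RDH10 makes retinaldehyde, and FABP5 is a fatty acid-binding protein that can also carry retinoic acid. RDH10 read 17.0 and 25.4 TPM without and 63.9 and 26.4 TPM with BMS493, so its difference of 0.95 (adjusted p = 0.00742) rested on BLSE + IWR1 + BMS493 48 h replicate 1 and was 0.33 without it (adjusted p = 0.471). ALDH1A3 read 12.2 and 13.8 TPM without and 45.7 and 27.6 TPM with BMS493, a difference of 1.39 (adjusted p = 0.00284) that was 1.03 without the same library (adjusted p = 0.103). FABP5 read 172 and 165 TPM against 92.4 and 94.7 TPM, a difference of -0.84 (adjusted p = 0.00439), which did not pass with any 1 of the 4 libraries left out. The calls of RDH10 and ALDH1A3 were also lost without BLSE + IWR1 48 h replicate 1. A fit of only the libraries compared lost both as well (adjusted p = 0.0747 and 0.0105) and kept FABP5 (adjusted p = 0.00555). None of the 14 passed at 12, 24 or 96 h, where 0%, 0.0893% and 0.732% of all tested genes did. As a mean over the 4 times, FABP5 fell (-0.60, adjusted p = 6.56e-05) with each of the 16 libraries left out, and RDH10 rose (0.52, adjusted p = 0.00273), a call lost without replicate 1 of either 48 h pair. The RDH10 mean was also not called in a fit of only these 16 libraries (adjusted p = 0.0441), while the FABP5 mean was.

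Of 28 listed retinoic acid responsive genes, 24 were in the table and 20 were tested. At 48 h 5 rose and 2 fell with BMS493, beside 4.83% of all tested genes called. None passed at 12, 24 or 96 h, where 0%, 0.0893% and 0.732% of all tested genes did. HOXB2 and HOXB6, the 2 genes that met the rule for naming (called and over 4-fold), were both higher with BMS493. HOXB2 read 3.27 and 1.51 TPM without and 6.84 and 24.9 TPM with it (2.12, adjusted p = 6.57e-05; 1.26, adjusted p = 0.0191, without BMS493 replicate 2). HOXB6 read 3.70 and 2.63 TPM without and 13.3 and 22.0 TPM with it (2.14, SE 0.291, adjusted p = 5.78e-06), a call that held with each library left out. The other 5 are named after their values were seen: HOXB3 (1.75), HOXB4 (0.99) and HOXB5 (1.84) rose, and CDX1 (-1.71) and STRA8 (-1.60) fell. With 1 library left out, HOXB3 lost its call without BMS493 replicate 1 (1.23, adjusted p = 0.0259), HOXB4 without BMS493 replicate 2 (0.69, adjusted p = 0.152) or the control replicate 2, HOXB5 without BMS493 replicate 2 (1.41, adjusted p = 0.0200) and CDX1 without BMS493 replicate 1 (-1.56, adjusted p = 0.0116). The HOXB genes, patterning genes of the trunk and hindbrain, kept their direction under both scaling alternatives.

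STRA8, the germ cell gene used as a readout of retinoic acid, fell with BMS493, as DHRS3 and RARG did. It read 7.35 and 6.63 TPM at 12 h, 7.97 and 8.16 at 24 h, 8.25 and 12.2 at 48 h and 3.83 and 4.16 at 96 h without BMS493. With BMS493 it read 3.06 and 4.07, 3.20 and 3.49, 2.79 and 2.51, and 1.92 and 2.76 TPM, below both control libraries at each time. Its mean difference over the 4 times was -1.02 (SE 0.124, adjusted p = 1.06e-06), and it was called with each of the 16 libraries left out. Of the 20 tested responsive genes 2 rose and 2 fell as a mean over the 4 times, beside 6.99% of all tested genes called. HOXB5 (0.75, adjusted p = 0.00166) and HOXB6 (0.80, adjusted p = 0.000244) rose and kept their calls in the same 16 fits. CDX1 fell (-0.58, adjusted p = 0.00987) and kept its call in 2 of the 16. CDX1 was not lower with BMS493 at each time: at 24 h it read 104 and 97.2 TPM without and 106 and 122 TPM with BMS493, and at 48 h 93.5 and 90.4 TPM against 24.5 and 30.5 TPM. Its mean was not called in a fit of only these 16 libraries (adjusted p = 0.0608). In xrOvary, STRA8 was at or under 0.67 TPM in all 6 libraries.

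Whether an effect changed with time was tested for the members as the difference of 2 contrasts in the same fit. For BMS493 no member was called for 48 h minus 12 h (0.0893% of tested genes) or 96 h minus 48 h (1.15%), nor for SOX17 (2.46%) or BMP4 (1.26%) at 48 h minus 12 h. Of these 36 tests limma gave 5 an unadjusted p under 0.05, and the smallest adjusted p was 0.0903.

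Over the induction itself, the members called before 96 h without BMS493 were both binding proteins and CYP26A1. The courses with and without BMS493 share the pre-treated cells as their start. In BLSE + IWR1 cells against pre-treated cells, 2 of 9 members were called at 12 h (6.79% of all tested genes), 2 at 24 h (9.46%), 2 at 48 h (19.2%) and 6 at 96 h (40.1%). With BMS493 the counts were 2 at 12 h (6.53%), 4 at 24 h (12.3%), 5 at 48 h (19.5%) and 7 at 96 h (38%). DHRS3 and RARG were called lower than in pre-treated cells from 24 h on with BMS493 (-0.85 and -0.78 at 24 h) and at 96 h without it. At 24 h with BMS493, the DHRS3 call was lost without any 1 of its 4 libraries and the RARG call without pre-treated replicate 2 or either BMS493 library, and at 48 h the RARG call was lost in the same way (-0.60, adjusted p = 0.0843, without pre-treated replicate 2).

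CYP26A1 was lower than in pre-treated cells at 12, 24 and 96 h. It read 202 and 159 TPM in pre-treated cells, 76.3 and 45.6 TPM at 12 h, 60.6 and 52.3 TPM at 24 h, 131 and 115 TPM at 48 h and 5.06 and 0.95 TPM at 96 h, and it was listed at 0 in both day 6 libraries. The decreases at 12 h (-1.58, adjusted p = 0.00451), 24 h (-1.65, adjusted p = 0.00232) and 96 h (-5.71, adjusted p = 1.17e-14) were called. The call at 12 h was lost without pre-treated replicate 1 or 2 or BLSE + IWR1 12 h replicate 2, and that at 24 h without any 1 of its 4 libraries, with the value staying between -1.95 and -1.22 for the former and between -1.82 and -1.48 for the latter. CRABP2, the partner that delivers retinoic acid to receptors, read 141 and 179 TPM in pre-treated cells, 896 and 844 TPM at 48 h and 54.7 and 43.1 TPM at 96 h. Its rise at 48 h was 2.44 (SE 0.359, adjusted p = 1.68e-06) and its fall at 96 h was -1.69 (adjusted p = 0.000165), both called with any library left out. At 96 h the sort on tdTomato also differs from the unsorted cells before it, and sort and time cannot be told apart there.

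In the absence of BMS493, neither DHRS3 nor RARG was called against pre-treated cells before 96 h. DHRS3 was 76.9 and 62.9 TPM in pre-treated cells and fell to 18.2 and 32.8 TPM at 96 h (-1.47, adjusted p = 1.53e-06). RARG was 74.3 and 93.4 TPM in pre-treated cells and fell to 25.9 and 20.9 TPM at 96 h (-1.80, adjusted p = 1.99e-09). RARB went the other way in its values, from 0.20 and 0.55 TPM at 48 h to 5.29 and 2.49 TPM at 96 h, but its difference from pre-treated cells, 0.88, did not pass (adjusted p = 0.0203).

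In the transgene cells, the comparison of SOX17 + BLSE with BLSE asks what enforced SOX17 adds. Dexamethasone was added only where SOX17 was enforced, so SOX17 and the glucocorticoid cannot be told apart in any comparison of these inductions with BLSE or with the cjESCs. CRABP2 was lower with SOX17 at 24 and 48 h and RARB at 48 h. No member passed at 12 h, where 2.4% of tested genes did, 1 of 9 passed at 24 h (7.56%) and 2 of 9 at 48 h (16.7%). CRABP2 read 1302 and 1913 TPM in BLSE and, with SOX17, 492 and 517 TPM at 24 h, then 1771 and 2061 TPM against 579 and 543 TPM at 48 h. All SOX17 libraries lay under the BLSE ones, with differences of -1.64 (adjusted p = 0.00132) and -1.77 (SE 0.359, adjusted p = 0.000258). The 24 h call was lost without BLSE 24 h replicate 2 or either SOX17 + BLSE library of that time (-1.92 to -1.37, adjusted p up to 0.0504). RARB at 48 h read 4.60 and 4.74 TPM in BLSE and 1.35 and 0.60 TPM with SOX17 (-1.55, adjusted p = 0.000280; -1.27, adjusted p = 0.0188, without SOX17 + BLSE 48 h replicate 2). CYP26A1 at 48 h, 329 and 380 TPM against 168 and 152 TPM, had a difference of -1.14 that did not pass (adjusted p = 0.0280).

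In BLSE without SOX17, CRABP2 and RARB rose and CRABP1 and RARG fell against the cjESCs, which all 3 transgene courses share. CRABP2 was 290 and 769 TPM in the cjESCs and 1641 and 2037 TPM at 96 h, called at each time with differences of 1.40, 1.74, 2.01 and 1.95. The spread of the cjESC pair decided how firm this was: without cjESC DK20FA replicate 1 the differences were 0.70, 1.04, 1.31 and 1.25 and none of the 4 passed. The calls at 12 and 24 h were also lost without BLSE replicate 2 of that time. RARB rose from 1.36 and 1.35 TPM to 4.60 and 4.74 TPM at 48 h and 6.88 and 5.72 TPM at 96 h (1.63, adjusted p = 6.80e-05), and the call at 48 h (1.27, adjusted p = 0.00207) was lost without any 1 of its 4 libraries. CRABP1 fell from 28.4 and 56.3 TPM to 1.75 and 3.17 TPM at 96 h (-3.60, adjusted p = 2.10e-10). RARG fell from 46.4 and 60.4 TPM to 16.6 and 18.4 TPM (-1.55, adjusted p = 6.31e-08). In this course 1 member was called at 12 h (7.41% of tested genes), 1 at 24 h (11.7%), 2 at 48 h (19.8%) and 4 at 96 h (29.5%).

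At 96 h the SOX17 + BLSE cells were sorted and the BLSE cells were not, so the comparison holds both. CYP26A1 read 368 and 495 TPM in BLSE and 5.73 and 14.5 TPM in SOX17 + BLSE, CRABP2 1641 and 2037 TPM against 29.6 and 50.9 TPM, and CRABP1 1.75 and 3.17 TPM against 29.9 and 38.0 TPM. The differences were -5.39, -5.52 and 3.36, all 3 called, where 45.4% of all tested genes were. Germ cell markers summed to 259 and 297 TPM in the BLSE cells and 3780 and 3548 TPM in the sorted SOX17 + BLSE cells, and stromal markers, led by VIM and DCN, to 3857 and 3011 TPM against 132 and 129 TPM. The germ cell sum includes PRDM1, the gene of the sorted reporter, and SOX17, the enforced gene, so part of its difference was set by the design. The part of these markers in the 3 values was not tested, and sort and SOX17 cannot be told apart at this time.

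CYP26A1, CRABP2 and RARG fell in both sorted SOX17 populations at 96 h. Against the cjESCs in DK20FA medium, SOX17 + BLSE cells had CYP26A1 at -4.59, CRABP2 at -3.57 and RARG at -1.44, and RARB at 1.24, 4 calls where 43.2% of tested genes were called. SOX17 + LSE cells, which had no BMP4, had CYP26A1 at -5.49, CRABP2 at -1.88 and RARG at -1.17, 3 calls where 33.8% were called. The RARB call in SOX17 + BLSE was lost without SOX17 + BLSE 96 h replicate 1 and the CRABP2 call in SOX17 + LSE without cjESC DK20FA replicate 2 (-1.18, adjusted p = 0.0175). These courses share their starting libraries.

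DHRS3 and RARG moved early in both SOX17 inductions. DHRS3 rose from 54.6 and 47.9 TPM in the cjESCs to 95.1 and 97.1 TPM in SOX17 + BLSE and to 88.1 and 112 TPM in SOX17 + LSE at 12 h, differences of 0.90 (adjusted p = 0.00484) and 0.94 (adjusted p = 0.00371). RARG fell from 46.4 and 60.4 TPM to 31.9 and 28.0 TPM and to 29.5 and 20.2 TPM, differences of -0.80 (adjusted p = 0.00399) and -1.09 (adjusted p = 0.000184). These were the 2 members called at 12 h in each course, where 9.82% and 8.35% of tested genes were called. All 4 calls were lost without cjESC DK20FA replicate 2: RARG then had -0.62 (adjusted p = 0.0899) in SOX17 + BLSE and -0.82 (adjusted p = 0.0282) in SOX17 + LSE. Both SOX17 + BLSE calls were also lost without either of their 12 h libraries, both SOX17 + LSE calls without SOX17 + LSE 12 h replicate 2, and both DHRS3 calls without cjESC DK20FA replicate 1, with DHRS3 values of 0.81 to 0.99 in SOX17 + BLSE and 0.77 to 1.11 in SOX17 + LSE. BLSE alone read 71.0 and 72.3 TPM for DHRS3 and 54.4 and 43.0 TPM for RARG at 12 h, and neither passed against the cjESCs. The difference between SOX17 + BLSE and BLSE at 12 h was not called for either gene (RARG -0.68, adjusted p = 0.0438). In SOX17 + BLSE RARG alone was called at 24 h (-0.81, 16.8% of tested genes, lost without cjESC DK20FA replicate 2 or SOX17 + BLSE 24 h replicate 2) and at 48 h (-1.11, 26.3%), and in SOX17 + LSE 3 members were called at 24 h (11.2%) and none at 48 h (13.5%), where 4 had an unadjusted p under 0.05 in limma.

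With BMP4, CRABP2 was lower at 96 h, the 1 call among the members. Between SOX17 + BLSE and SOX17 + LSE, no member passed at 12 h (0.277% of tested genes), 24 h (2.62%) or 48 h (8.01%), and 1 of 9 passed at 96 h (7.11%), with 0, 3, 4 and 4 members at an unadjusted p under 0.05. CRABP2 at 96 h read 29.6 and 50.9 TPM with BMP4 and 113 and 144 TPM without it (-1.69, adjusted p = 0.00103). This call was lost without SOX17 + BLSE 96 h replicate 1 or SOX17 + LSE 96 h replicate 2, with values between -2.07 and -1.31. At the earlier times the CRABP2 values lay the other way: 492 and 517 TPM with against 228 and 273 TPM without BMP4 at 24 h (1.01, adjusted p = 0.112) and 579 and 543 TPM against 380 and 396 TPM at 48 h (0.53, adjusted p = 0.405), with no overlap at either time. CRABP1 at 48 h read 30.8 and 40.0 TPM with and 107 and 62.7 TPM without BMP4 (-1.20, adjusted p = 0.0205), and DHRS3 52.9 and 56.6 TPM with and 83.9 and 92.8 TPM without it (-0.68, adjusted p = 0.0422).

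**Figure D4:**
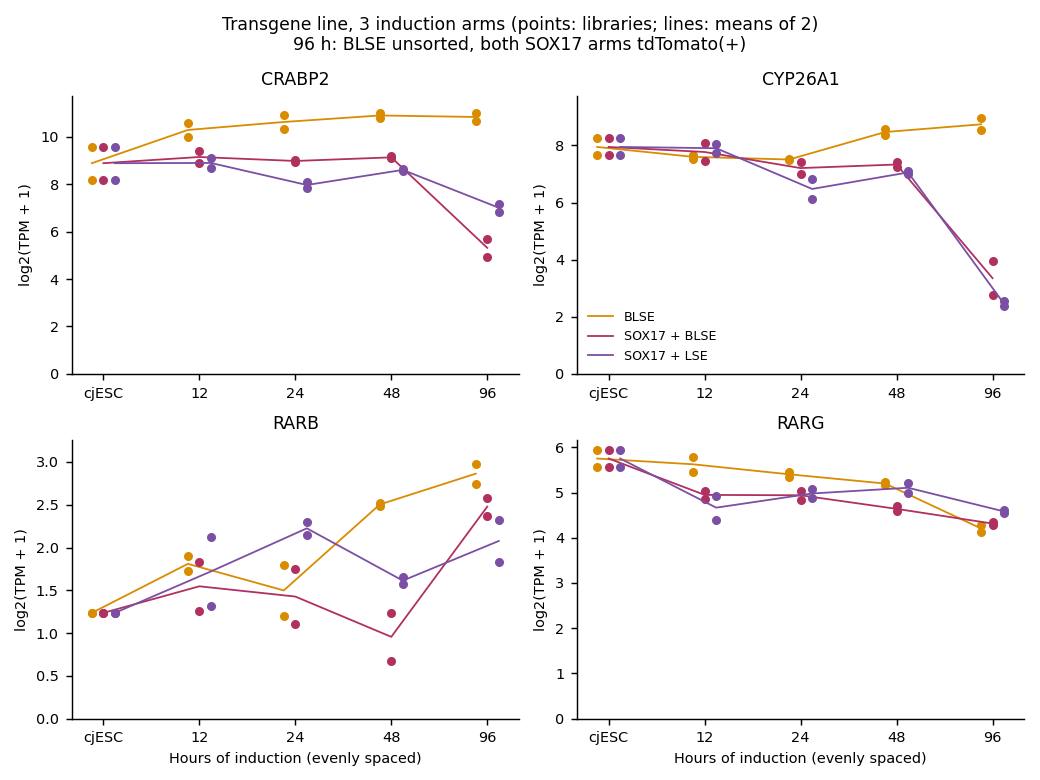
Log2(TPM + 1) (vertical axes, from 0) of CRABP2, CYP26A1, RARB and RARG in the transgene cells: cjESCs and 12, 24, 48 and 96 h (horizontal axes, evenly spaced) of BLSE, SOX17 + BLSE and SOX17 + LSE. Points are libraries and lines join the means of 2. CRABP2 stays at 1641 and 2037 TPM in unsorted BLSE cells at 96 h and is at 29.6 and 50.9 TPM in sorted SOX17 + BLSE cells.

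The 2 unsorted BLSE inductions, with IWR1 from wild type cells and without it from transgene cells, differed in 3 to 5 members at each time up to 48 h. They differ in IWR1, in the transgenes, in the stem cell medium and in the pre-treatment, which cannot be told apart. With IWR1, 3 of 9 members were called at 12 h (13.8% of tested genes), 4 at 24 h (14.6%) and 5 at 48 h (21.2%). CRABP2 was lower with IWR1 at 12 h (172 and 156 TPM against 1019 and 1533 TPM, -2.92, adjusted p = 1.04e-07) and at 24 h (-3.01, adjusted p = 5.20e-08), both with any library left out. CYP26A1 was lower at 12, 24 and 48 h (-1.69, -1.67 and -1.51), with values between -2.06 and -1.33 whichever library was left out. Its call was lost without BLSE 12 h replicate 2 or BLSE + IWR1 12 h replicate 2, without either BLSE 24 h library or BLSE + IWR1 24 h replicate 2, and without any 1 of the 4 libraries at 48 h. RARG was higher, by 0.72, 0.96 and 1.16, and at 48 h read 66.6 and 99.0 TPM with and 36.6 and 34.9 TPM without IWR1 (adjusted p = 2.19e-05). Its call at 12 h was lost without BLSE 12 h replicate 2 or either IWR1 library (0.56 to 0.89) and at 24 h without BLSE + IWR1 24 h replicate 2 (adjusted p = 0.0182).

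RARB and CRABP1 parted at 48 h in the same comparison. RARB read 0.20 and 0.55 TPM with IWR1 and 4.60 and 4.74 TPM without it (-2.06, SE 0.317, adjusted p = 3.75e-06), and CRABP1 75.7 and 93.3 TPM against 20.9 and 22.6 TPM (1.90, SE 0.361, adjusted p = 8.47e-05). ALDH1A2 was called higher with IWR1 at 24 h (1.72) and 48 h (1.83), at levels of 4.47 and 5.39 TPM and 1.41 and 6.81 TPM. The 24 h call was lost without any 1 of its 4 libraries, and at 48 h the difference ran from 0.98 to 2.68 and was not called without BLSE 48 h replicate 2 or BLSE + IWR1 48 h replicate 2.

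CRABP1 and ALDH1A2 set the 2 kinds of cjESC apart. CRABP1 read 758 and 1696 TPM in PESFA medium and 28.4 and 56.3 TPM in DK20FA medium (4.79, SE 0.361, adjusted p = 1.63e-12), and ALDH1A2 17.8 and 22.4 TPM against 0.26 and 1.13 TPM (3.68, SE 0.427, adjusted p = 2.50e-08). CRABP2 went the other way, 193 and 193 TPM against 290 and 769 TPM, a difference of -1.29 (adjusted p = 0.00664) that was -0.59 without cjESC DK20FA replicate 2 (adjusted p = 0.315) and was also lost without either PESFA library. These 3 of 9 calls stood beside 16.8% of all tested genes. The cells differ in medium and transgenes together. Stromal markers moved with CRABP1 and ALDH1A2: their 11 genes summed to 4144 and 3502 TPM in PESFA medium and 596 and 997 TPM in DK20FA medium, and COL1A1 alone to 1598 and 878 TPM against 41.8 and 83.6 TPM. One of the 11 was at 0 in both PESFA libraries. These cells were grown on mouse embryonic fibroblasts and sorted as TRA-1-60(+), and the part of the stromal RNA in the CRABP1 and ALDH1A2 values was not tested.

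The pre-treated cells from the same medium had CRABP1 at 97.7 and 406 TPM, lower than the cjESCs by a called difference of -2.50 (adjusted p = 6.75e-05), 1 of 9 members beside 0.304% of tested genes. The call was lost without cjESC PESFA replicate 2 (-1.92, adjusted p = 0.0284) or pre-treated replicate 1 (-1.48, adjusted p = 0.0367). The stromal sum was 2964 and 5414 TPM in the 2 pre-treated libraries, with COL1A1 at 1385 and 2715 TPM and ALDH1A2 at 4.40 and 19.8 TPM, each higher in replicate 2, as CRABP1 was. In the cjESC pair CRABP1 and ALDH1A2 were higher in replicate 2 and the stromal sum and COL1A1 in replicate 1. The part of stromal RNA in these values was not tested. In the BLSE + IWR1 cells CRABP1 was 28.2 and 29.1 TPM at 12 h (-2.76 against pre-treated cells, adjusted p = 5.29e-07), and the stromal sum was 466 and 362 TPM. At 48 h CRABP1 was 75.7 and 93.3 TPM, and its difference of -1.24 from pre-treated cells (adjusted p = 0.00843) was -0.21 without pre-treated replicate 2 (adjusted p = 0.723) and not called without either 48 h library. ALDH1A2 was lower at 96 h than in pre-treated cells (-2.11, adjusted p = 8.46e-05; -1.14, adjusted p = 0.0391, without pre-treated replicate 2).

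After the induction, CRABP1 and DHRS3 rose and CRABP2 and RARG fell in the tdTomato(+) cells. From 96 h to day 6, 2 of 9 members were called (2.75% of tested genes): CYP26A1 went from 5.06 and 0.95 TPM to 0 in both libraries (-1.78, adjusted p = 0.00338) and CRABP2 from 54.7 and 43.1 TPM to 13.1 and 22.2 TPM (-1.45, adjusted p = 0.00994). The CYP26A1 call was lost without BLSE + IWR1 96 h replicate 1 (-0.96, adjusted p = 0.188) or either day 6 library, and the CRABP2 call without any 1 of its 4 libraries (-1.81 to -1.09).

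From day 6 to day 20 of xrOvary, 5 of 9 members were called (20.4% of tested genes), 3 higher and 2 lower. DHRS3 rose from 16.6 and 17.8 TPM to 57.2 and 54.2 TPM (1.64, SE 0.229, adjusted p = 5.90e-07), under both pre-treated libraries, and CRABP1 rose from 20.5 and 24.7 TPM to 95.4 and 102 TPM (2.08, SE 0.361, adjusted p = 2.20e-05). Neither pair overlapped its predecessor, and both calls held with each library left out. CYP26A1 reappeared at 0.86 and 2.62 TPM (1.38, adjusted p = 0.00623), a low level whose call was lost without either day 6 library or day 20 replicate 2 (0.90, adjusted p = 0.182). RARG fell from 23.8 and 21.9 TPM to 7.88 and 12.5 TPM (-1.12, SE 0.201, adjusted p = 3.53e-05). STRA6 went from 2.63 and 0.90 TPM to 0 in both libraries (-1.39, adjusted p = 0.00950), and its call was lost without day 6 replicate 1 (-0.93, adjusted p = 0.207) or either day 20 library.

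Later in xrOvary, CRABP2 was the 1 member called between successive times. From day 20 to day 40 no member was called (4.6% of tested genes), with 2 at an unadjusted p under 0.05 in limma, and from day 40 to day 70 1 of 9 was called (2.73%). That gene was CRABP2, which read 13.8 and 20.3 TPM at day 20, 3.94 and 11.2 TPM at day 40, and 0.86 and 0 TPM at day 70 (-2.51, SE 0.359, adjusted p = 7.42e-06). RARG read 4.79 and 7.09 TPM at day 40 and 2.62 and 3.94 TPM at day 70, and neither step passed (-0.68, adjusted p = 0.0261, and -0.69, adjusted p = 0.0338). DHRS3 stayed between 54.2 and 62.3 TPM and CRABP1 between 57.5 and 102 TPM in all 6 libraries.

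The balance within each pair of related genes shifted over this course. CRABP2 exceeded CRABP1 by 11.8 and 9.05 times at 48 h of BLSE + IWR1 and by 1.55 and 1.65 times at 96 h, and was 0.64 and 0.90 of CRABP1 at day 6, 0.145 and 0.199 at day 20 and 0.0150 and 0 at day 70. Of the summed TPM of the 3 receptors, RARG made up 97.4% and 96.8% at 48 h, 74.8% and 70.2% at day 6 and 33.0% and 41.6% at day 70. RARB made up 0.293% and 0.538% at 48 h, 22.3% and 27.2% at day 6 and 58.1% and 55.1% at day 70. RARB itself read 0.20 and 0.55 TPM at 48 h, 7.10 and 8.47 TPM at day 6, 10.1 and 8.23 TPM at day 20 and 4.61 and 5.22 TPM at day 70. RARG read 66.6 and 99.0 TPM at 48 h, 23.8 and 21.9 TPM at day 6 and 2.62 and 3.94 TPM at day 70. From 48 h to day 6 the share of RARB went up with more RARB and less RARG. From day 6 to day 70 both receptors had lower values, RARG by more. Cells at 48 h were unsorted and those from 96 h on were tdTomato(+). Sort and time therefore cannot be told apart in the shifts from 48 h. In unsorted BLSE cells at 96 h, from the transgene line, RARB made up 28.1% and 22.2%.

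The summed stromal and gonadal somatic markers were higher at day 20 than at day 6, as DHRS3 and CRABP1 were. The 11 genes summed to 297 and 267 TPM at day 6, 669 and 739 TPM at day 20 and 143 and 172 TPM at day 70. VIM, which many cell types express, read 194 and 184 TPM at day 6 and 638 and 707 TPM at day 20. COL1A1 read 3.64 and 4.35 TPM at day 6 and 1.83 and 2.67 TPM at day 20, DCN 1.52 and 3.27 TPM and then 0 in both libraries, and 3 of the 11 markers were at 0 in both libraries at either time. The part of these markers in the DHRS3 and CRABP1 values was not tested. The 7 germ cell markers summed to 2479 and 2644 TPM at day 20 and 1860 and 1850 TPM at day 70, within the tdTomato(+) sort.

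**Figure D5:**
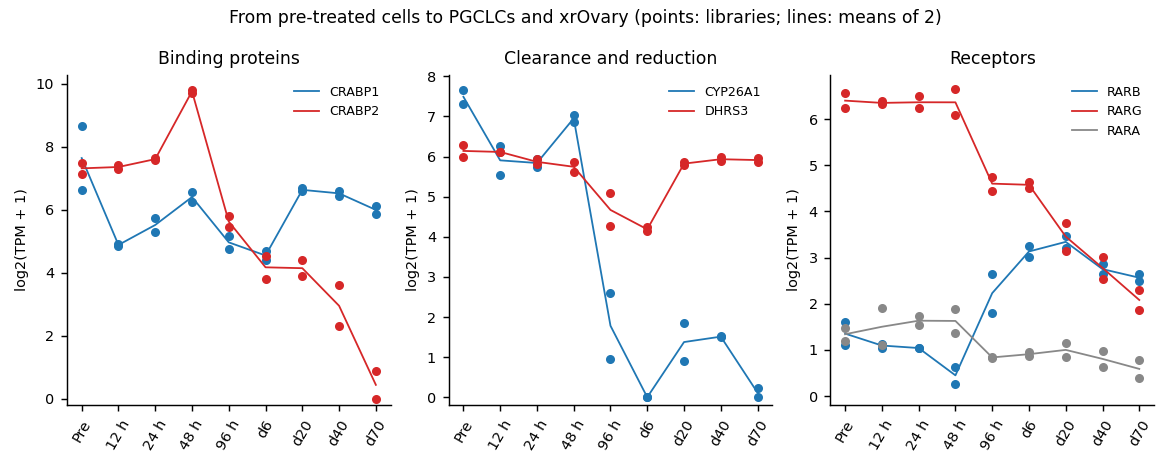
Log2(TPM + 1) (vertical axes) of the binding proteins, the clearing and reducing enzymes and the receptors from pre-treated cells (Pre) through BLSE + IWR1 (12 to 96 h and day 6) to xrOvary days 20, 40 and 70 (horizontal axis, evenly spaced). Points are libraries and lines join the means of 2. CRABP1 (95.4 and 102 TPM) and DHRS3 (57.2 and 54.2 TPM) are above their day 6 values at day 20, while CRABP2 and RARG go down to day 70.

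Across the 27 condition means the members did not move as one. As a description, with conditions that share starting cells and sorts, CYP26A1 and CRABP2 were the most alike of all pairs (Pearson r = 0.91), and RARB and RARG were the most opposed (r = -0.76). DHRS3 correlated with no other member above 0.54, and CRABP1 with none above 0.61. Among all tested genes, the one most like CYP26A1 was ASPH (r = 0.95), the one most like CRABP2 was KRT8, an epithelial keratin (r = 0.97), and the one most like RARG was TLE7 (r = 0.95). The closest to RARB was DENND5B (r = 0.87), to ALDH1A2 GPR173 (r = 0.88), to CRABP1 ARHGAP35 (r = 0.84), to DHRS3 KCNH2 (r = 0.83), to STRA6 SDHAF3 (r = 0.83) and to RARA UBALD1 (r = 0.80).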

How the data were processed

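Per the labels, total RNA was purified by column, poly(A) RNA was selected, and directional libraries were made. Per the submitters' processing notes and the methods, reads were aligned with STAR to the marmoset build cj1700_1.1 and quantified with RSEM, and the authors deposited 1 table of TPM for 54 libraries. Raw counts were not analysed here, so sequencing depth is unknown, and the number of replicates (2) limits the precision. Antisense and near-identical genes were taken as the table gives them.

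Values were turned to log2(TPM + 1), and genes at 1.5 or more on this scale in at least 1 library were kept. limma 3.58.1 in R 4.3.3 fitted 1 mean per condition to all 54 libraries (27 residual degrees of freedom, variance trend), with Benjamini-Hochberg adjustment over 11197 genes. The script was tested on simulated data. The members and gene lists were chosen with earlier results of these data known. Named beyond the members were listed genes called with over 4-fold change under BMS493, at most 10 (other named genes are marked as chosen after their values were seen), and for each member the tested genes with the highest Pearson r over 27 condition means. Alternatives were a pseudocount of 0.1, no filter, a filter in 2 libraries, median-ratio and quantile scaling, no variance trend, only the libraries compared, a replicate block, and each library left out. The mean over 4 times of BMS493 was added after the data were seen. No sequences or coordinates are given: the reference tables used here were of another build.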

Additional observations from a re-analysis of the deposited data

How the results depend on the processing

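The main limits are 2 libraries a condition, TPM without counts, and a spread pooled over conditions that were sorted in different ways. No called difference of a member changed its direction under any alternative. Differences near 0 that were not called are not covered by this statement. Against the counts of members called over all comparisons of each kind, fits of only the libraries compared gave 0 in place of 1 for BMS493, 2 in place of 1 for BMP4, 5 in place of 8 for the BLSE course, 4 in place of 8 for the SOX17 + LSE course, 6 in place of 13 for the BLSE + IWR1 course, 2 in place of 8 for the steps from 96 h to day 70, and 0 in place of 3 for the cjESC media, with fewer libraries and residual degrees of freedom by construction. A pseudocount of 0.1 gave 1 in place of 3 for SOX17, 0 in place of 1 for BMP4, 7 in place of 12 for BLSE + IWR1 against BLSE and 5 in place of 8 for the BLSE course. Median-ratio scaling and quantile normalization each gave 2 in place of 1 for BMS493, and no filter and no variance trend each gave 5 in place of 8 for the steps from 96 h to day 70. The cause was not tested.

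With 1 library left out, and the lone library of its condition assumed to vary like the others, the counts ran from 0 to 2 for BMS493, 2 to 3 for SOX17, 0 to 2 for BMP4, 9 to 12 for BLSE + IWR1 against BLSE, 3 to 8 for the BLSE course, 5 to 9 for SOX17 + BLSE, 2 to 9 for SOX17 + LSE, 8 to 14 for BLSE + IWR1, 10 to 19 for BLSE + IWR1 + BMS493, 4 to 8 for the late steps, 2 to 3 for the cjESC media, 3 to 3 for the mean over times and 0 to 0 for changes of an effect with time.

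The labels do not say that a replicate number marks a shared batch. With the replicate block, the BMS493 count was 1 and the mean over times 3, as without it, and 2 single member tests gained a call. Deviations of same-numbered libraries correlated at -0.21 to 0.29. For BLSE + IWR1 against BLSE at 24 h (r = -0.21), 4 members were called without a block, with it and with the pairing crossed. Median-ratio scaling moved the median of all genes by over 0.1 for SOX17 at 24 h (-0.11) and 96 h (-0.24), SOX17 + BLSE (-0.14), SOX17 + LSE (-0.15) and BLSE + IWR1 (-0.18) at 96 h against their starts, and BMS493 at 24 h against pre-treated cells (-0.11).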
